A study of Mus musculus with 8 samples.

Results

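Cholesterol is built from acetyl-CoA along the mevalonate pathway, and the 8 genes described here, Hmgcs1, Mvd, Idi1, Fdps, Fdft1, Sqle, Lss and Cyp51, encode enzymes of that route. They were chosen by symbol, 8 of the 23847 rows of a table of mouse heart transcripts. Each symbol had a single row. All of them are synthesis enzymes, and genes of cholesterol uptake are given further on from a separate list.

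The table holds poly(A)-selected RNA from heart ventricles of C57BL/6 mice at postnatal day 21. The 4 Med1cKO libraries came from mice with a cardiac knockout of Med1, a subunit of the Mediator complex that links transcription factors to RNA polymerase II. The other 4 libraries are labelled WT, and the design text gives these mice as Med1fl/fl, with floxed Med1. Neither the promoter behind the deletion nor the number of animals in a sample is stated, so p-values may measure only the spread between these samples. Values are FPKM, fragment counts divided by transcript length and library size.

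Early steps of the route make mevalonate and turn it into isoprenoid building blocks, which also serve coenzyme Q, dolichol and protein prenylation. Squalene synthase then draws farnesyl diphosphate into sterols, and later enzymes oxidise, close and trim the ring system. Genes of the route are known to be switched on together by SREBP transcription factors, which are released from the endoplasmic reticulum when its sterol content is low, and NF-Y and Sp1 are known to act with SREBP at many of these promoters. The heart makes some cholesterol itself and also takes it up from lipoproteins.

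Promoters of 5 members (Hmgcs1, Mvd, Idi1, Lss and Cyp51, not Fdps, Fdft1 or Sqle) were matched by symbol in RefSeq (build GRCm38.p6), each running from 250 bases before to 50 bases after the start of the gene. Of these, 3 are printed: that of Hmgcs1, because it alone held the sterol element searched for, and those of Idi1 and Lss, because both genes were called higher on every scaling tried with all libraries. Capitals mark matches on either strand to TCACNCCAC (a sterol regulatory element with N for any base), CCAAT (the NF-Y box) and GGGCGG (the Sp1 box). The windows are chr13:119690101-119690400 on the plus strand for Hmgcs1, chr13:8885356-8885655 on the plus strand for Idi1 and chr10:76531355-76531654 on the plus strand for Lss.
Hmgcs1: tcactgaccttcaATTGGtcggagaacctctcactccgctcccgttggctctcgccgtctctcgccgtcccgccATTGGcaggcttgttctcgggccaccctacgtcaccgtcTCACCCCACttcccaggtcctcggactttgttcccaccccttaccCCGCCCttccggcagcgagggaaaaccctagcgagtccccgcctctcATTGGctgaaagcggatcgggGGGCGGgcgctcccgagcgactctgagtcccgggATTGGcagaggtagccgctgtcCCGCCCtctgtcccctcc
Idi1: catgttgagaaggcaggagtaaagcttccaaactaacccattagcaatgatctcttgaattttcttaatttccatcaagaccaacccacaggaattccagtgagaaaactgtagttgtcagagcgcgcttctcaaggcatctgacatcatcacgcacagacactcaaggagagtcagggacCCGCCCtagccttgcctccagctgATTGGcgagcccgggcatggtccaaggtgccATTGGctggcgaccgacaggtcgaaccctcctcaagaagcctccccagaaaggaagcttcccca
Lss: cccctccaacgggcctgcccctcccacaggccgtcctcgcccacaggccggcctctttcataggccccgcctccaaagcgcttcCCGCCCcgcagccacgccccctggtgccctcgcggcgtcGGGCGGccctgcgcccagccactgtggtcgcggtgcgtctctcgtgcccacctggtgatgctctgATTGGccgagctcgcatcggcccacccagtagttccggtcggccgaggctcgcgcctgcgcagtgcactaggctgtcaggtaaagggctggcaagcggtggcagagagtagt

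The sterol element stood in the Hmgcs1 window at bases 114 to 122, and among 27025 promoters of the same length 1.22% held it. CCAAT was found in all 5 member promoters, those of Mvd and Cyp51 included, against 37.9% of all promoters. GGGCGG was also found in all 5, against 35.9% of all promoters. None of the 3 motifs overlapped another in these windows. A match describes letters in this window only and says nothing about binding.

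Med1 was lower in every Med1cKO library. It had 7.80, 8.37, 7.89 and 9.15 FPKM in Med1cKO, against 15.5, 16.1, 10.6 and 16.8 FPKM in WT, and the Med1cKO mean was 56.3% of the WT mean. An exact permutation test over the 70 assignments of libraries to groups gave its lowest attainable two-sided p, 0.0286.

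Summed FPKM ran from 481719 to 502629 in Med1cKO and from 507484 to 536174 in WT, so every Med1cKO sum lay below every WT sum. FPKM is already divided by library size, so these sums do not show the size of a library. The number of fragments is unknown, but steps between the lowest values gave depths of 1.014 to 1.106 times that of Med1cKO 1 in the other Med1cKO libraries and of 0.976 to 1.079 times in WT. Of all genes tested, those with a mean of at least 1 FPKM, 11974 in number, 61.3% were called at a limma adjusted p under 0.05. Higher calls in Med1cKO made up 44.9% and lower calls 16.4%. The median gene was itself 0.25 higher in Med1cKO on the log2(FPKM + 1) scale. After rescaling of the libraries by the median of ratios, which brings that shift to 0.007, 53.9% of genes were called, 27.0% higher and 26.9% lower. After quantile normalization 54.3% were called, 28.7% higher and 25.6% lower. Log2 changes below are Med1cKO minus WT on the log2(FPKM + 1) scale, as deposited first and rescaled second, with limma adjusted p-values over all genes. That scale understates the change of low genes.

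Some libraries carried markers of other tissue. Among the adipocyte markers, Cfd had 8.25, 0.201, 0.496 and 84.2 FPKM in Med1cKO and 10.4 FPKM in WT 3, and it was listed at 0 in the other WT libraries. Adipoq and Cidec likewise had 21.0 and 25.2 FPKM in Med1cKO 4 and 3.34 and 1.48 FPKM in WT 3. They had 1.82 and 2.37 FPKM in Med1cKO 1, and at most 0.141 and 0.0492 FPKM in Med1cKO 2 and 3. By these adipocyte markers Med1cKO 1 was closer to WT 3 than to Med1cKO 4. Among the T cell markers, Cd8a had 8.96 FPKM and Cd3g 7.49 FPKM in WT 3, against at most 0.202 and 0.467 FPKM in the other WT libraries. So Med1cKO 4 stood apart by adipocyte markers, and WT 3 by T cell markers and, less so, adipocyte markers. Values without Med1cKO 4 and WT 3, an alternative chosen after seeing the data, are given where they change a call. Med1cKO 1 was kept in that alternative. Of all 11974 genes tested, it called 4922 higher and 1832 lower as deposited, and 2925 and 2934 after rescaling. Member and list counts of that alternative stand beside these.

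The pathway did not move as a block. As deposited, 4 of the 8 members were called higher in Med1cKO (Idi1, Sqle, Lss and Cyp51), 1 lower (Fdft1), and 3 were not called (Hmgcs1, Mvd and Fdps). After rescaling, and likewise after quantile normalization, 3 were called higher (Idi1, Sqle and Lss) and 2 lower (Fdft1 and Hmgcs1). Without Med1cKO 4 and WT 3, 3 were called higher (Idi1, Sqle and Lss) and 1 lower (Fdft1) as deposited, and 1 higher (Lss) and 2 lower (Fdft1 and Hmgcs1) after rescaling. Of all 11974 genes, 4922 were higher and 1832 lower there as deposited, and 2925 and 2934 after rescaling. The 5 calls of 8 with all libraries stand beside the 61.3% called among all genes, so the share called is near that of any gene. The median log2 change of the members was 0.36, against 0.25 for all genes, and 0.12 against 0.01 after rescaling. All 8 members passed the 1 FPKM minimum, Sqle and Lss through their Med1cKO values, since their WT means were below it, so these member counts and medians are a description only. Members whose libraries did not overlap between groups numbered 3 as deposited (Fdft1, Sqle and Lss), where 57.0% of all genes did not overlap (41.7% higher and 15.3% lower in Med1cKO). After rescaling they numbered 2 (Fdft1 and Lss), where the share was 51.5% (25.8% higher and 25.7% lower).

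**Figure D1:**
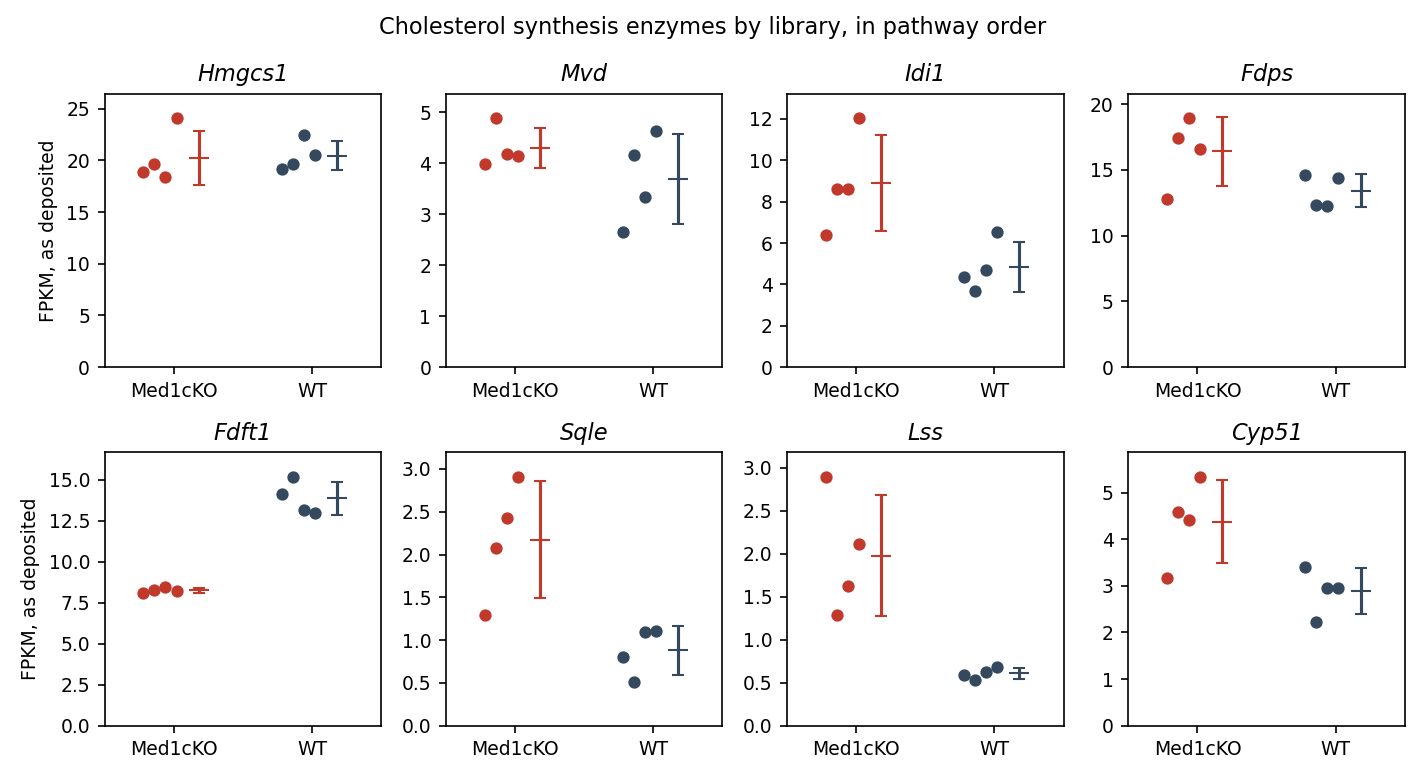
FPKM as deposited of the 8 enzymes in each Med1cKO library (red, left) and WT library (dark blue-grey, right), points in replicate order with the mean and SD (n = 4) beside them. The Med1cKO libraries lie wholly above WT for Sqle and Lss and wholly below for Fdft1.

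Hmgcs1 encodes the cytosolic HMG-CoA synthase, an early enzyme of the mevalonate steps. Its row spans chromosome 13, 119690462 to 119708077 (mm10). It had 18.9, 19.7, 18.4 and 24.1 FPKM in Med1cKO, against 19.2, 19.7, 22.4 and 20.5 FPKM in WT. The groups overlapped, and Med1cKO 4 was the highest of all libraries. Means were 20.2 ± 2.59 FPKM in Med1cKO and 20.5 ± 1.43 FPKM in WT (SD, n = 4 each). This gave a log2 change of -0.02 ± 0.10 (standard error, limma adjusted p = 0.877). Rescaling gave 18.4 ± 2.26 FPKM in Med1cKO and 22.6 ± 1.66 FPKM in WT, a log2 change of -0.29 that passed (limma adjusted p = 0.0301). As deposited its sign was not fixed: leaving out single libraries gave log2 changes from -0.10 to 0.02.

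Mvd encodes the decarboxylase that ends the mevalonate steps and yields isopentenyl diphosphate (chromosome 8, 122433596 to 122443422). It had 3.99, 4.88, 4.17 and 4.14 FPKM in Med1cKO, against 2.65, 4.17, 3.34 and 4.63 FPKM in WT. The WT libraries were the more spread and the groups overlapped. Its log2 change was 0.19 ± 0.14 (standard error, limma adjusted p = 0.259), and -0.03 after rescaling (limma adjusted p = 0.862), so neither scaling gave a call and the sign differed between them.

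Idi1 encodes the isomerase that turns isopentenyl diphosphate into its reactive partner (chromosome 13, 8885606 to 8892396). It rose in Med1cKO, with 6.38, 8.59, 8.63 and 12.03 FPKM, against 4.36, 3.69, 4.72 and 6.55 FPKM in WT. Only the lowest Med1cKO library fell below the highest WT library, so the groups overlapped at that single point. Means were 8.91 ± 2.33 FPKM in Med1cKO and 4.83 ± 1.22 FPKM in WT (SD, n = 4 each), and the Med1cKO mean was 184% of WT. Its log2 change was 0.76 ± 0.19 (standard error, limma adjusted p = 0.00642), and 0.52 after rescaling (limma adjusted p = 0.0465). Its change lay above that of 83.9% of genes tested. Without Med1cKO 4 and WT 3 it was 0.61 as deposited (limma adjusted p = 0.031) and 0.38 after rescaling, which did not pass (limma adjusted p = 0.175).

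Fdps encodes farnesyl diphosphate synthase, whose product is the branch point between sterols and other isoprenoids (chromosome 3, 89093588 to 89101967). It had 12.8, 17.4, 18.9 and 16.6 FPKM in Med1cKO, against 14.6, 12.4, 12.3 and 14.4 FPKM in WT. Of the Med1cKO libraries, 3 were above every WT library and Med1cKO 1 was within the WT range. Its log2 change of 0.26 ± 0.12 (standard error, limma adjusted p = 0.0842) was close to the shift of the median gene, and it was 0.00 after rescaling (limma adjusted p = 0.997). Without Med1cKO 1 it passed as deposited, with 0.37 (limma adjusted p = 0.00739).

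Fdft1 encodes squalene synthase, which joins a pair of farnesyl diphosphates and commits them to sterols (chromosome 14, 63145150 to 63177793). It fell in Med1cKO, the only member called lower on every scaling tried. It had 8.10, 8.30, 8.44 and 8.22 FPKM in Med1cKO, against 14.1, 15.2, 13.2 and 12.99 FPKM in WT. The groups were far apart and the Med1cKO libraries nearly equal to each other. Means were 8.27 ± 0.143 FPKM in Med1cKO and 13.9 ± 1.0 FPKM in WT (SD, n = 4 each), so the Med1cKO mean was 59.6% of WT. On the log2 scale the change was -0.68 ± 0.07 (standard error, limma adjusted p = 4.2e-05), and -0.94 after rescaling (limma adjusted p = 7.6e-06). Only 9.1% of genes tested had a lower value. The gene ends inside its neighbour Ctsb, which encodes the lysosomal protease cathepsin B, with 774 bases shared on opposite strands in GENCODE. Ctsb had 182, 150, 160 and 159 FPKM in Med1cKO, against 117, 106, 115 and 119 FPKM in WT. Its log2 change of 0.50 (limma adjusted p = 0.00051) ran the other way. Whether counting used strand is not given in the sources used here, and the part of this overlap in the Fdft1 values was not tested.

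Sqle encodes squalene epoxidase, a rate-limiting oxygen-dependent step of the sterol branch (chromosome 15, 59315092 to 59331193). It rose in Med1cKO, with 1.29, 2.07, 2.43 and 2.91 FPKM, against 0.800, 0.515, 1.098 and 1.112 FPKM in WT. The groups did not overlap as deposited, although Med1cKO 1 was close to the upper WT libraries, and they overlapped after rescaling. Means were 2.17 ± 0.683 FPKM in Med1cKO and 0.881 ± 0.283 FPKM in WT (SD, n = 4 each), the Med1cKO mean being 247% of WT. The log2 change was 0.74 ± 0.19 (standard error, limma adjusted p = 0.00693), and 0.58 after rescaling (limma adjusted p = 0.0254). With a pseudocount of 0.1 FPKM in place of 1 it was 1.21, which shows how far the scale compresses a gene this low. Without Med1cKO 4 and WT 3 it was 0.69 with a pseudocount of 1 (limma adjusted p = 0.0202) and 0.54 after rescaling, which did not pass (limma adjusted p = 0.0609).

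Lss encodes lanosterol synthase, which closes the ring system of the sterol (chromosome 10, 76531627 to 76553934). It rose in Med1cKO, with 2.90, 1.28, 1.63 and 2.11 FPKM, against 0.595, 0.528, 0.627 and 0.687 FPKM in WT. Every Med1cKO library lay above every WT library on both scalings, and Med1cKO 1, low for other members, was here the highest. Means were 1.98 ± 0.700 FPKM in Med1cKO and 0.609 ± 0.0661 FPKM in WT (SD, n = 4 each), so the Med1cKO mean was 325% of WT. The change on the log2 scale was 0.86 ± 0.17 (standard error, limma adjusted p = 0.00174), and 0.71 after rescaling (limma adjusted p = 0.00473). With a pseudocount of 0.1 FPKM it was 1.497. The antisense gene 4930483K19Rik overlaps Lss by 11268 bases, and it was listed at 0 in 6 libraries and at 0.0728 FPKM or less in the others.

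Cyp51 encodes the lanosterol demethylase, a cytochrome P450 that starts the trimming of lanosterol (chromosome 5, 4080674 to 4104697). It had 3.17, 4.59, 4.42 and 5.34 FPKM in Med1cKO, against 3.41, 2.22, 2.96 and 2.96 FPKM in WT. Of the Med1cKO libraries, 3 were above every WT library, and Med1cKO 1 was below the highest of them. It rose as deposited, with a log2 change of 0.46 ± 0.15 (standard error, limma adjusted p = 0.0207). It was 0.24 after rescaling and did not pass (limma adjusted p = 0.188). Without Med1cKO 4 or without WT 2 it also missed the threshold (limma adjusted p = 0.0512 and 0.0564), as it did without Med1cKO 4 and WT 3 together (limma adjusted p = 0.0824). Cyp51 shares 166 bases with Akap9 on the opposite strand in GENCODE. Other members overlap genes that had no row: Mvd with Gm20388 (9822 bases), Fdps with Gm43738 (7512, same strand), Hmgcs1 with Gm48342 (6190) and Idi1 with Gm48574 (323). The part of these overlaps in the member values was not tested.

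**Figure D2:**
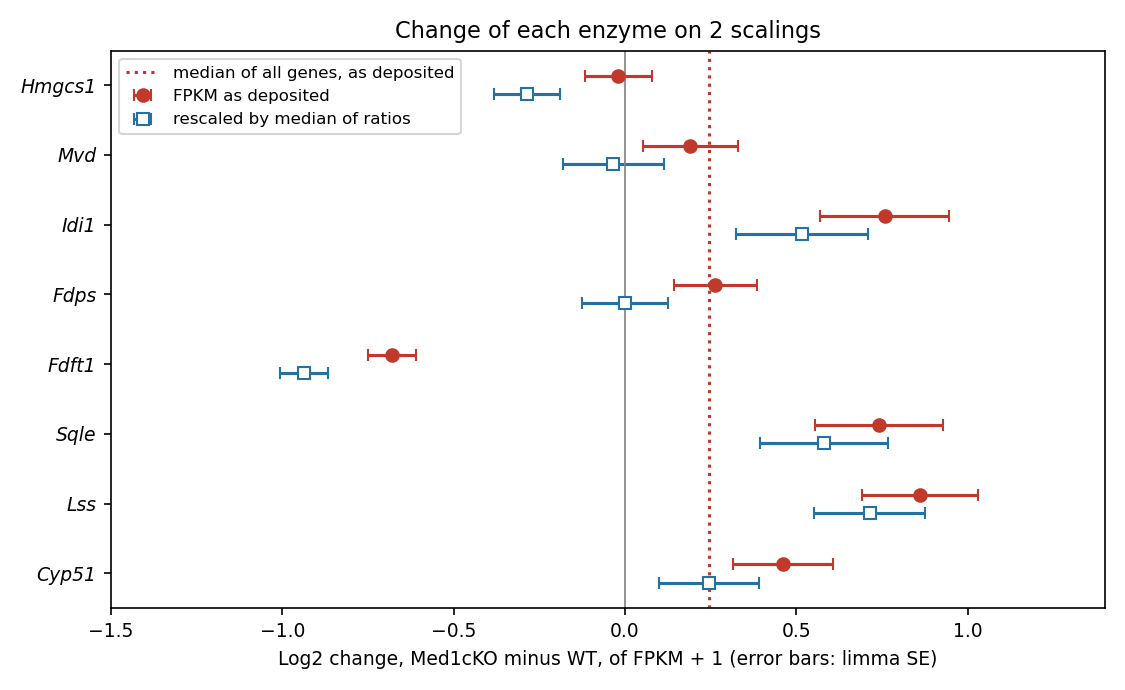
Log2 change of each enzyme, Med1cKO minus WT, of FPKM + 1 with the limma standard error, as deposited (red circles) and rescaled by the median of ratios (blue squares), the dotted line marking the median of all genes at 0.25. Idi1, Sqle and Lss lie above that line and above 0 on both scalings, Fdft1 lies below 0 on both, and Hmgcs1, Mvd and Fdps lie at or below the line.

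Set against the shift of the median gene, the members fell into 3 positions. Lss, Idi1 and Sqle stood 0.61, 0.51 and 0.49 above it on the log2 scale and Cyp51 0.22 above it. Fdps and Mvd were at 0.02 and -0.06 from it. Hmgcs1 was at -0.27 and Fdft1 at -0.93.

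The order of levels also differed between the groups, and FPKM allows it because it divides by transcript length. In Med1cKO the order by mean FPKM ran from Hmgcs1 at 20.2 through Fdps at 16.4, Idi1 at 8.91, Fdft1 at 8.27, Cyp51 at 4.38, Mvd at 4.29 and Sqle at 2.17 to Lss at 1.98. In WT it ran from Hmgcs1 at 20.5 through Fdft1 at 13.9, Fdps at 13.4, Idi1 at 4.83, Mvd at 3.70 and Cyp51 at 2.89 to Sqle at 0.881 and Lss at 0.609. Neighbours whose ranges overlapped in Med1cKO were Hmgcs1 and Fdps, Idi1 and Fdft1, Cyp51 and Mvd, and Sqle and Lss. In WT they were Fdft1 and Fdps, Idi1 and Mvd, Mvd and Cyp51, and Sqle and Lss. Fdft1 thus stood beside Idi1 in Med1cKO, and beside Fdps in WT.

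Ratios between members within a library do not depend on a scale factor per library. They were chosen after the values were seen and are given with no test. Fdft1 relative to Fdps, the enzyme that makes its substrate, was 0.635, 0.477, 0.446 and 0.495 in Med1cKO, against 0.965, 1.23, 1.07 and 0.901 in WT. The groups did not overlap: Fdft1 stood below Fdps in every Med1cKO library and on either side of it in WT. Sqle relative to Fdft1, the step before it, was 0.159 to 0.354 in Med1cKO and 0.0339 to 0.0856 in WT. Lss relative to Sqle was 2.25 in Med1cKO 1 and 0.619 to 0.727 in the other Med1cKO libraries, against 0.571 to 1.03 in WT, so these overlapped. Relative to Hmgcs1, Idi1, Sqle and Lss were higher in every Med1cKO library than in any WT library, Fdft1 was lower, and Mvd, Fdps and Cyp51 overlapped. Over all genes tested, the ratio to Hmgcs1 did not overlap between groups for 47.1%, higher in Med1cKO for 34.3% and lower for 12.8%. No such share was taken for the ratios to Fdps, Fdft1 or Sqle, and Fdft1 itself was lower in every Med1cKO library.

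**Figure D3:**
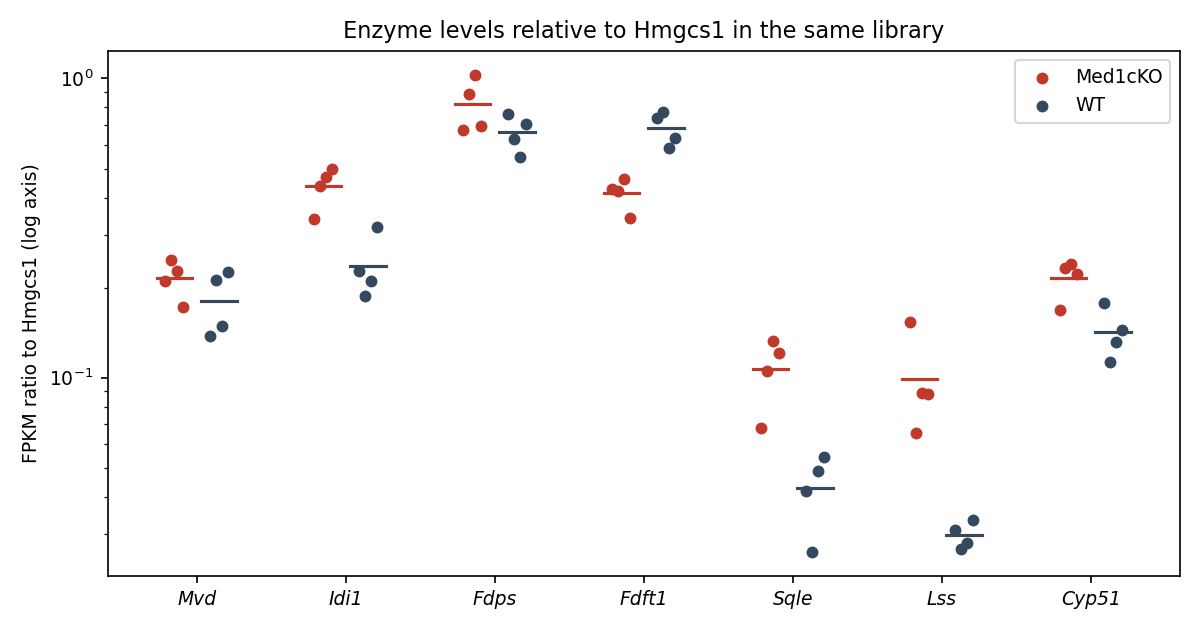
FPKM of each other enzyme divided by that of Hmgcs1 in the same library, on a log axis, with Med1cKO (red, left) and WT (dark blue-grey, right) points and their means as lines. Idi1, Sqle and Lss are separated upwards in Med1cKO, Fdft1 downwards, and Mvd, Fdps and Cyp51 overlap.

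Among the Med1cKO libraries, Med1cKO 1 was the lowest and Med1cKO 4, the library highest in Cfd, Adipoq and Cidec, the highest for Idi1, Sqle and Cyp51. Med1cKO 1 was also lowest for Mvd, Fdps and Fdft1, but highest for Lss. Among the WT libraries, WT 2 was the lowest for Idi1, Sqle, Lss and Cyp51. Summed over the 8 members, the Med1cKO libraries had 57.5, 66.8, 67.0 and 75.4 FPKM, against 59.7, 58.3, 60.7 and 63.8 FPKM in WT. The sums overlapped, with Med1cKO 1 below all WT libraries and the others above them.

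The authors' deposited table compares the groups on another scale. Over 11904 genes its pooled FPKM was 1.06 times the mean of the library values in Med1cKO and 1.29 times in WT, in the median gene, a log2 difference of -0.28 that runs against the median shift of the library values. At a q under 0.05 in the authors' deposited table, 3 of the 8 members passed, all higher in Med1cKO, where 45.8% of the genes it tested passed (23.1% higher and 22.8% lower). These were Lss, with a deposited log2 fold change of 1.404 (q = 0.000763), Sqle with 1.02 (q = 0.0115) and Idi1 with 0.58 (q = 0.00622). In that table Hmgcs1 had -0.30 (q = 0.0711), Cyp51 0.32 (q = 0.173), Mvd -0.06 (q = 0.865) and Fdps 0.00 (q = 0.988). Fdft1 had 8.75 FPKM in Med1cKO and 17.8 FPKM in WT in the authors' deposited table, a log2 fold change of -1.02, yet its q was 0.307. There Fdft1 and Ctsb carry the same joined locus, chromosome 14, 63122462 to 63177793. In the authors' deposited table Ctsb had a log2 fold change of 0.23 (q = 0.247).

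The other 13 enzymes of cholesterol synthesis, taken from a list, were called higher in 6 cases and lower in none as deposited, with a median log2 change of 0.28. After rescaling 3 were higher and 2 lower, with a median of 0.02. Over all genes 44.9% were called higher and 16.4% lower as deposited, and 27.0% and 26.9% after rescaling, so the share called higher was near that of any gene. Without Med1cKO 4 and WT 3 there were 4 higher and 0 lower as deposited, and 0 higher and 1 lower after rescaling. All 11974 genes gave 4922 and 1832 there as deposited, and 2925 and 2934 after rescaling. Ebp, a sterol isomerase, had 14.6 ± 1.80 FPKM in Med1cKO and 9.34 ± 0.728 FPKM in WT (SD, n = 4 each), a log2 change of 0.59, and 0.33 after rescaling. Hsd17b7, a sterol ketoreductase, had 1.45 ± 0.377 FPKM in Med1cKO and 0.634 ± 0.227 FPKM in WT, with log2 changes of 0.58 and 0.45, and reached the minimum through its Med1cKO values. Sc4mol (now Msmo1) and Nsdhl rose as deposited by 0.63 and 0.45, and did not pass after rescaling (limma adjusted p = 0.113 and 0.054). Lbr and Dhcr7 were the enzymes called lower after rescaling, with log2 changes of -0.24 and -0.50. Nsdhl, Lbr and Dhcr7 were named after their values were seen.

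Uptake genes changed in both directions. Of 12 listed, 10 reached the minimum, and 6 rose and 2 fell as deposited, beside 44.9% and 16.4% of all genes. After rescaling 4 rose and 2 fell, beside 27.0% and 26.9% of all genes. The median log2 change was 0.46 (0.22 rescaled). Without Med1cKO 4 and WT 3 there were 4 higher and 2 lower as deposited, and 3 and 2 after rescaling. All 11974 genes gave 4922 and 1832 there as deposited, and 2925 and 2934 after rescaling. Vldlr, the receptor for triglyceride-rich lipoproteins, fell, with 23.3 ± 3.82 FPKM in Med1cKO and 56.6 ± 12.9 FPKM in WT (SD, n = 4 each), log2 changes of -1.23 and -1.51. Lrp1, a large endocytic receptor, rose with 33.5 ± 7.77 FPKM in Med1cKO and 11.9 ± 1.46 FPKM in WT, and Npc2, the lysosomal carrier of cholesterol, with 36.1 ± 4.97 FPKM in Med1cKO and 18.7 ± 1.4 FPKM in WT. Npc1, the membrane partner of Npc2, was the other gene that fell, with log2 changes of -0.77 and -1.02. Npc1 and Lrp8, a further receptor of the family, were named after their values were seen. Lrp8 had 0.900, 1.59, 1.51 and 3.04 FPKM in Med1cKO, against 0.0557, 0.0517, 0.208 and 0.0326 FPKM in WT, but its mean was below the minimum and it was not tested.

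Of 12 genes that control SREBP, 8 rose and 1 fell as deposited, beside 44.9% and 16.4% of all genes. After rescaling 5 rose and 2 fell, beside 27.0% and 26.9% of all genes. The median log2 change was 0.49 (0.22 rescaled), and leaving out Med1cKO 4 and WT 3 gave the same counts on either scaling. Insig1, a sterol-sensing anchor of SREBP and an SREBP target itself, had 10.6, 15.3, 14.3 and 11.5 FPKM in Med1cKO, against 6.27, 5.93, 5.57 and 6.10 FPKM in WT, log2 changes of 0.99 and 0.74. Its relative Insig2 had 54.2 ± 11.3 FPKM in Med1cKO and 27.1 ± 1.61 FPKM in WT (SD, n = 4 each), with 0.96 and 0.68. Scap, the escort of SREBP, rose by 0.64 and 0.39, and the protease gene Mbtps2 by 0.56 and 0.33. Srebf2, which encodes the SREBP most tied to cholesterol synthesis, had 7.03, 9.39, 9.85 and 11.3 FPKM in Med1cKO, against 6.37, 4.41, 6.78 and 6.62 FPKM in WT. The groups did not overlap as deposited, and the log2 change of 0.56 (limma adjusted p = 0.0115) became 0.31 after rescaling (limma adjusted p = 0.123). Rnf139 was called lower after rescaling alone, with -0.30. Srebf2 and Rnf139 were named after their values were seen.

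Of 12 listed genes of cholesterol export, storage and oxysterols, 8 were tested, and 3 were called higher and 1 lower (2 and 1 rescaled), near the shares of all genes, 44.9% and 16.4% (27.0% and 26.9% rescaled). Their median log2 change was 0.20, and 0.05 without Med1cKO 4 and WT 3, with the same counts of calls. Soat1, which esterifies cholesterol, had 2.89 ± 0.872 FPKM in Med1cKO and 1.28 ± 0.0749 FPKM in WT (SD, n = 4 each), and rose by 0.75 and 0.56. Nceh1, which hydrolyses cholesteryl esters, fell, with 19.6 ± 3.75 FPKM in Med1cKO and 44.5 ± 9.38 FPKM in WT, log2 changes of -1.14 and -1.41. Nr1h3, the oxysterol receptor LXR alpha, rose by 1.27 and 1.02. Its relative Nr1h2 rose by 0.40 as deposited, and its 0.13 after rescaling did not pass (limma adjusted p = 0.303).

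In the isoprenoid branches that leave the route at Fdps, 6 of 14 genes were called higher and 5 lower (5 and 7 rescaled), where all genes gave 44.9% and 16.4% (27.0% and 26.9% rescaled). The list had a median log2 change of -0.08, the lowest of these lists, and the same counts without Med1cKO 4 and WT 3. Ggps1, which makes geranylgeranyl diphosphate, rose with 17.6 ± 2.25 FPKM in Med1cKO and 8.57 ± 1.52 FPKM in WT (SD, n = 4 each), log2 changes of 0.97 and 0.71. Zmpste24, a protease of prenylated prelamin A, rose by 0.83 and 0.56. Pdss1 and Pdss2, which together make the tail of coenzyme Q, fell, with log2 changes of -1.14 and -0.90 as deposited and of -1.39 and -1.15 after rescaling. Pdss2 had 6.71 ± 1.58 FPKM in Med1cKO and 13.1 ± 0.757 FPKM in WT. The other genes called lower as deposited, named after their values were seen, were Rabggta, Rabggtb and Coq2, with log2 changes of -0.67, -0.30 and -0.30.

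Fatty acid synthesis genes that SREBP also drives were called higher in 4 of 9 tested and lower in none (2 and 1 rescaled). All genes gave 44.9% higher and 16.4% lower (27.0% and 26.9% rescaled), so the shares called higher were near or below those. The median log2 change was 0.57 (0.32 rescaled), against 0.25 for all genes (0.01 rescaled). Without Med1cKO 4 and WT 3 there were 4 and 0 (3 and 0 rescaled), with a median of 0.45 (0.24 rescaled). All 11974 genes gave 4922 and 1832 there (2925 and 2934 rescaled). Fads1, a desaturase, had 10.9 ± 0.888 FPKM in Med1cKO and 5.85 ± 0.498 FPKM in WT (SD, n = 4 each), log2 changes of 0.79 and 0.54. Acly, which supplies cytosolic acetyl-CoA to both routes, rose by 0.58 and 0.32. Fasn and Fads2 rose by 0.74 and 0.57 as deposited and did not pass after rescaling (limma adjusted p = 0.0806 and 0.134). Acss2, named after its values were seen, was the gene called lower after rescaling, with -0.37.

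**Figure D4:**
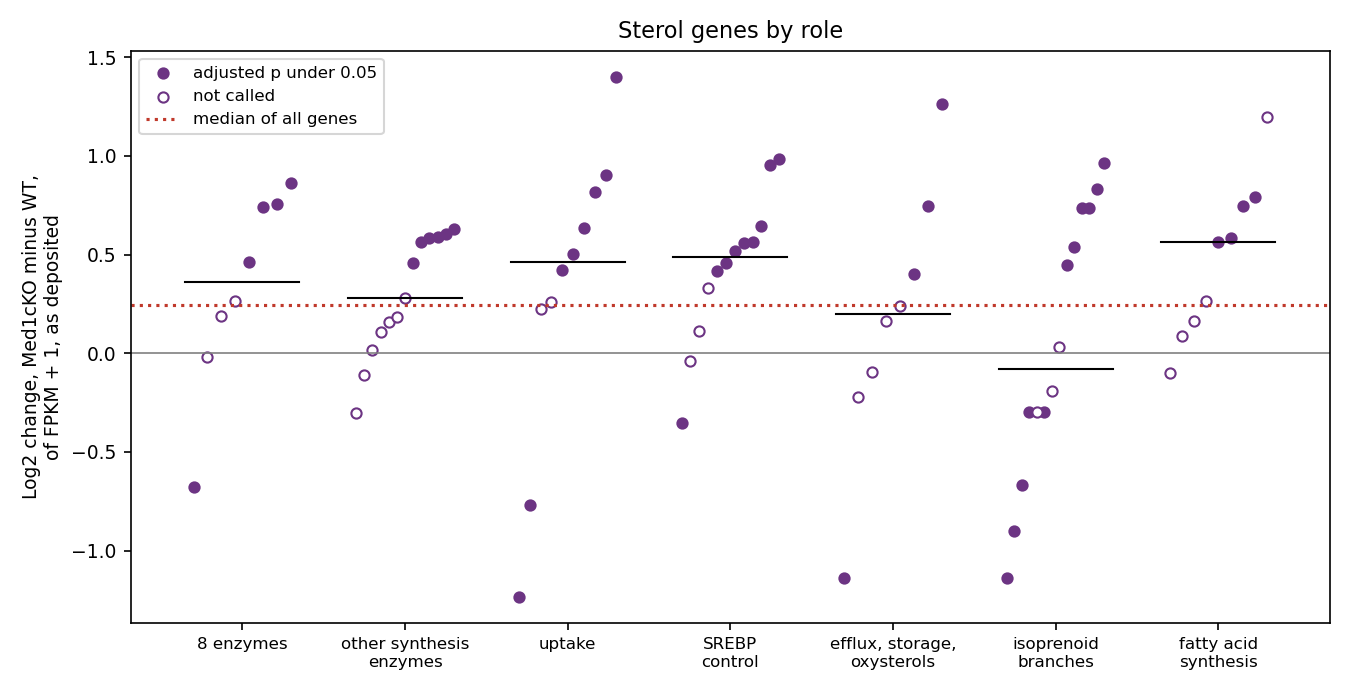
Log2 changes, Med1cKO minus WT, of FPKM + 1 as deposited for the 8 enzymes and 6 lists of related genes, each point a gene, filled where the limma adjusted p was under 0.05, with list medians as bars and the median of all genes dotted. The members spread from -0.68 to 0.86 around their median of 0.36, and the isoprenoid branches have the lowest median, -0.08.

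Likeness to the mean profile of the members over the 8 libraries was taken as the root mean square difference of centred log2 values. Members, genes of the lists, markers and genes with provisional names were left out of the search. The closest genes among the rest were Smarca5 (0.0490), Jagn1 (0.0546), Imp4 (0.0571), Usp1 (0.0575) and Nsmf (0.0586). The members' own differences from that mean ran from 0.133 for Fdps to 0.519 for Fdft1. Over all genes tested the median was 0.275, with Idi1, Lss and Fdft1 above it and the other members below it.

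The tissue was whole ventricle, in which fewer cells of a type and less RNA per cell cannot be told apart. Marker calls are given as deposited, beside 44.9% of all genes called higher and 16.4% lower. Rescaled counts stand beside 27.0% and 26.9%. Cardiomyocyte markers were abundant in all libraries but mostly lower in Med1cKO, with 9 of 10 lower and 1 higher on either scaling. Their summed level was 15790 to 23490 FPKM in Med1cKO and 47110 to 52610 FPKM in WT. Of 8 fibroblast markers 6 were higher and none lower (4 and 0 rescaled). Their sums were 1287 to 2220 FPKM in Med1cKO and 682 to 807 FPKM in WT. Smooth muscle and pericyte markers were higher in 4 of 8 and lower in 2 (3 and 2 rescaled). Their sums were 775 to 1053 FPKM in Med1cKO and 345 to 516 FPKM in WT. Endothelial markers were higher in 2 of 8 and lower in 2 (1 and 4 rescaled). Their sums were 302 to 416 FPKM in Med1cKO and 300.4 to 375 FPKM in WT. None of 8 macrophage markers was called as deposited, and 2 (C1qa and C1qb) were called lower after rescaling. Macrophage sums were 162 to 325 FPKM in Med1cKO and 219 to 339.7 FPKM in WT. Adipocyte markers (none of 6 tested called, 800.3 to 1607 FPKM in Med1cKO and 831 to 1794 FPKM in WT) and lymphocyte markers (none of 3 tested called, 4.29 to 6.26 FPKM in Med1cKO and 4.68 to 31.95 FPKM in WT) overlapped between the groups as sums. The adipocyte sums are nearly all Fabp4, at 799.9 to 1457 FPKM in Med1cKO and 831 to 1794 FPKM in WT, and the highest lymphocyte sum is that of WT 3. No marker was at 0 in every library, and 7 of the 8 adipocyte markers were at 0 in at least 1. The part of these differences in the values of the sterol genes was not tested.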

How the data were processed

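TopHat (version 1.0.0) placed the reads on mm10, and Cufflinks and Cuffdiff gave transcripts and group comparisons, per the submitters' processing notes. For Cufflinks and Cuffdiff the version, annotation and strand setting were not given in the sources used. The deposited values of the first table are FPKM of each gene in each library, per the file headers. Its lowest value, 0.001, filled 58303 cells, no cell held 0, and it was read as 0. In 312 rows no library has a number, and in 1 row a single library lacks one, so these were left out. The second table holds the authors' pooled FPKM, log2 fold changes, test score, p-values and q-values, per the file headers.

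Columns were matched to samples by the description labels. Group and replicate come from the titles. The main test was limma (version 3.58.1, R 4.3.3) with an intensity trend on log2(FPKM + 1) for genes whose mean over the libraries reached 1 FPKM, two-sided, with Benjamini-Hochberg adjustment over all genes and a threshold of 0.05. The procedure was tested on simulated data. FPKM falls for one gene when others take more of the total, which is why rescaled values stand beside the deposited ones. The members and lists were chosen with earlier results of these data known. From each list the rule named up to 4 called members of largest change, further names are marked or complete a count, and a few list genes are counted but not reported here by name. Loci count from 1. Alternatives were a pseudocount of 0.1, a minimum of 5 FPKM or none at all, median-of-ratios rescaling, quantile normalization, no trend, a replicate block and each library left out, with 2 added after seeing the data: rescaling with the smaller pseudocount, and Med1cKO 4 and WT 3 left out together. Sequences come from RefSeq, overlaps from GENCODE M21 (GRCm38).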

Additional observations from a re-analysis of the deposited data

Results flagged for a closer look

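None of the 8 members, nor Med1, had a library apart from its group by Dixon's criterion, which compares the gap to the nearest library with the range of the group. The criterion was applied to 86 groups of 4, over 43 of the genes named here. Of these groups 5 had such a library, and chance flags about 1 in 20. Other named genes were left out of that count, some with a library just as far apart. Lbr was at 11.7 FPKM in WT 3 and at 9.75 to 9.94 in the other WT libraries. Rnf139 was at 14.7 FPKM in Med1cKO 1, with the others at 11.8 to 12.2. Cfd, Adipoq and Cd8a, given above, were left out too. The count therefore does not describe all named genes. Pdss1 was at 7.18 FPKM in Med1cKO 4 and at 4.28 to 4.53 in the other Med1cKO libraries. Usp1 was at 11.5 FPKM in Med1cKO 4, with the others at 9.34 to 9.57. Nr1h3 was at 5.40 FPKM in WT 2, with the others at 3.78 to 3.99. Fasn was at 5.66 FPKM in WT 3 against 3.54 to 3.70 in the other WT libraries. Lrp8 was at 0.208 FPKM in WT 3, with the others at 0.0326 to 0.0557.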

How the results depend on the processing

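Of the members, Lss and Fdft1 kept their direction and call in every alternative that included them. Idi1 and Sqle kept theirs except without Med1cKO 4 and WT 3 on rescaled values, where they had 0.38 and 0.54 (limma adjusted p = 0.175 and 0.0609). There 3 members (1 higher, 2 lower), 1 other enzyme (0 higher, 1 lower), 5 uptake genes (3 higher) and 2925 genes in all higher were called, Mvd had -0.051 and Fdps -0.044. Fewer libraries enter that fit. The scalings moved the counts. Members called lower were 2 after rescaling, with or without a pseudocount of 0.1, and 2 after quantile normalization. Rescaling with a pseudocount of 0.1, like leaving out those libraries, was chosen after seeing the data. The other synthesis enzymes had 3 higher and 2 lower after rescaling with either pseudocount, and 2 lower after quantile normalization. All genes gave 3236 higher and 3223 lower after rescaling (3246 and 3231 with a pseudocount of 0.1) and 3437 and 3067 after quantile normalization. Mvd, at 0.19 as deposited, had -0.034 after rescaling, -0.036 with the smaller pseudocount too and -0.0080 after quantile normalization. A minimum of 5 FPKM left 4 members, 2 of them called and 1 higher, and 5 other enzymes, 2 called, both higher. Fewer genes were tested there, 8279 in all, of which 5704 were called, 4196 higher and 1508 lower. Leaving out each library gave 4 to 6 members called, 3 to 5 of them higher and 1 lower. It gave 5 to 7 other enzymes called, 5 to 7 higher and 0 to 1 lower, and 7 to 8 uptake genes. Of all 11974 genes it gave 6726 to 7213 called, 4900 to 5278 higher and 1798 to 1949 lower. Hmgcs1 ran from -0.10 to 0.02 there, with 0.010, 0.023 and 0.024 without Med1cKO 1, Med1cKO 3 and WT 3. The cause of these moves was not tested.

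Deviations from the group means correlated at 0.14, 0.03, -0.04 and -0.01 between same-numbered libraries, in replicate order. Only for Med1cKO 1 was the same-numbered WT library the closest. Such correlations cannot settle whether the libraries were paired, by litter or by preparation for example. With the replicate block 6956 genes and 5 members were called. Fragment counts are unknown, which limits what can be said of Sqle and Lss near 1 FPKM.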
